A study of Mus musculus with 12 samples.

Results

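The AP-1 (activator protein 1) and immediate early genes examined here were the Fos family (Fos, Fosb, Fosl1, Fosl2), the Jun family (Jun, Junb, Jund) and the transcription factor genes Egr1, Atf3 and Myc, 10 of the 47642 genes listed in the table, each found by the Ensembl identifier of its symbol. All 10 were among the 18552 genes tested, whose average over the 12 libraries reached 1 normalized count. RNA was sequenced from mIMCD3 cells, an immortalized epithelial line from the inner medullary collecting duct of a mouse carrying the SV40 early region, which every group shared. The 3 genotypes were wild-type (Wt), Pkd1-/-, with a CRISPR deletion of most of Pkd1 on each allele, and Pkd2-/-, with a TALEN deletion inside Pkd2, each knockout being 1 clone, so that genotype and clone cannot be told apart. Each genotype had 4 libraries, from separate dishes kept 4 days past confluency, detached with trypsin before RNA isolation and picked from a larger set by RNA purity, and p-values measure only the spread between dishes of 1 line or clone.

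AP-1 is a dimer of basic leucine zipper proteins. Jun proteins pair with each other or with a Fos protein, while Fos proteins need a Jun partner, and the dimers bind the palindromic TPA response element or the cAMP response element. Fos, Fosb, Jun, Junb, Egr1, Atf3 and Myc are classical immediate early or early response genes, whose transcription rises within minutes of growth factors, calcium, cAMP or stress without new protein synthesis and whose transcripts are short-lived. Fosl1 and Fosl2 (Fra-1 and Fra-2) follow later and Jund is the most constantly expressed Jun protein. EGR1 is a zinc finger factor, ATF3 a stress-induced factor of the ATF/CREB family that can pair with Jun proteins, and MYC a regulator of growth and ribosome production that binds DNA with MAX. In kidney tubule cells these genes are known for their response to injury, osmotic stress and mitogens.

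RefSeq promoter sequences (GRCm38.p6) were matched for 7 of the 10 members, the exceptions being Fosl1, Egr1 and Myc. Of these 7, all higher in Pkd2-/- cells, 5 are shown, picked in part for holding TGACG or TGACATCA, so that the count of motifs among them is fixed by the choice. The windows of Fosl2 and Jund hold neither and are not shown. Starts are those of RefSeq and differ from the GENCODE M21 gene start for some members. The Jund window (chr8:70697489-70697738, plus strand) ends before the annotated gene (70698949 to 70700616). The windows of Fosl2 (chr5:32136222-32136471, plus strand) and Atf3 lie inside the annotated genes (32135801 to 32157842 and 191170296 to 191218039). The 250 bases upstream of the RefSeq start are given on the gene's strand. They are those of Fos (chr12:85473640-85473889, plus strand), Fosb (chr7:19310046-19310295, minus strand), Jun (chr4:95052223-95052472, minus strand), Junb (chr8:84978749-84978998, minus strand) and Atf3 (chr1:191183334-191183583, minus strand). Capitals mark TGACG, the core of the cAMP response element, on either strand, and in Jun TGACATCA, a variant AP-1 site.
Fos: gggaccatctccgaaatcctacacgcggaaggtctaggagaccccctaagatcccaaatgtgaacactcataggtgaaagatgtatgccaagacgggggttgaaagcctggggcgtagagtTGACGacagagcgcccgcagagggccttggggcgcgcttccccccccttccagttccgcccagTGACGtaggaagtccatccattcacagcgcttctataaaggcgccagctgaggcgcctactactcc
Fosb: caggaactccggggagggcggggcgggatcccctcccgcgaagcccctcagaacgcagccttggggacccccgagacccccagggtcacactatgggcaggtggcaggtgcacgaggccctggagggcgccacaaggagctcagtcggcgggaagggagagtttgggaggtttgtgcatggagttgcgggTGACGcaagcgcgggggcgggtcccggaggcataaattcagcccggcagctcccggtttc
Jun: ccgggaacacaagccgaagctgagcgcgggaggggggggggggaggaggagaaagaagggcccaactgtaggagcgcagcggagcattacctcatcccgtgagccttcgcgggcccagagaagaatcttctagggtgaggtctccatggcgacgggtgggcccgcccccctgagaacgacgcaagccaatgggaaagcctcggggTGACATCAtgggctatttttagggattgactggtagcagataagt
Junb: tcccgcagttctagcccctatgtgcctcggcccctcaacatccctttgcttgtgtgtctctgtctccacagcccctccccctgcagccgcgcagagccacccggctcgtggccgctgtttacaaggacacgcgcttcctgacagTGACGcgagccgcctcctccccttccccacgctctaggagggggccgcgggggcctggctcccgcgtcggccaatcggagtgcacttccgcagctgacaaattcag
Atf3: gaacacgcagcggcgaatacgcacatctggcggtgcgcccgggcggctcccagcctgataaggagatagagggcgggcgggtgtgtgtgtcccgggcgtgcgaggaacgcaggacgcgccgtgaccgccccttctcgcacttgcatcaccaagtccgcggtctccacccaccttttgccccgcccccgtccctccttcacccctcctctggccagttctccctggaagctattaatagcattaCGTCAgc

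TGACG on either strand was found in Fos, 66 and 129 bases before the start, in Fosb at 60, in Junb at 106 and in Atf3, on the opposite strand, at 7, that is in 4 of the 7 promoters and not in those of Jun, Fosl2 and Jund, and it occurred in 17.8% of 32851 mouse promoters of this length. The full palindrome TGACGTCA, which contains TGACG, was in none of the 7 and in 1.55% of all. TGACATCA was in Jun, 45 bases before its start, and in 2.93% of all promoters. TGANTCA, the TPA response element, was in none of the 7 and in 6.75% of all, and the serum response factor motif (CArG box) in none and in 1.47%. The Egr1 type motif GCGNGGGCG was in Fosb and Fosl2 and in 4.7% of all, and TATAAA in Fos, 33 bases before its start, and in 12.4%. These are matches of letters within a 250-base window and say nothing of binding or of motifs further upstream. Fosl1, Egr1 and Myc were not searched. For Jund, Fosl2 and Atf3 the window does not adjoin the annotated gene start, so the sequence just upstream of that start was not searched.

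Normalized counts summed to between 25966273 and 28027792 per library, and from the spacing of the low values each library was estimated to hold 23194317 to 30318690 counted reads. Pkd1 was 682 to 883 in Wt and 30 to 49 in Pkd1-/- libraries, whose deletions cover 90.4% and 89.8% of its exon bases if the labelled coordinates are read on GRCm38. The Pkd2 total cannot check the Pkd2-/- label, because that deletion covers 14.7% of the exon bases. Pkd2 was 3438 to 4467 in Wt and 3855 to 4135 in Pkd2-/- libraries. Of 10 collecting duct epithelial markers 9 had a mean of at least 10 in every genotype, while Aqp2, the vasopressin-regulated water channel that defines principal cells, was at 0 in all 12 libraries. Endothelial markers summed to at most 9 and fibroblast markers to at most 102 in any library. The macrophage markers Adgre1 and Ptprc were at 0 and at most 5, but Cd68 was 47 to 69 over the 12 libraries. Csf1r, also on that list, was 828 to 941 in Wt, 381 to 587 in Pkd1-/- and 663 to 774 in Pkd2-/-. The part of Cd68 or Csf1r in any result below was not tested.

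Per kilobase (kb) of exon, the members spanned a wide range of levels in Wt cells. Egr1 (4784 ± 786 normalized counts per kb, SD, n = 4), Junb (4768 ± 676) and Jund (4097 ± 257) stood highest, and the libraries of neighbours in this order overlapped, as did those of Jund with Fos (3133 ± 992) and of Fos with Myc (2523 ± 220). Jun (1539 ± 273), Atf3 (642 ± 122) and Fosl2 (136 ± 15) followed without overlap of neighbouring libraries. Fosb (55.9 ± 33.5) and Fosl1 (55.3 ± 3.5) were lowest and did not differ beyond their spread. Egr1 and the Jun and Fos leaders were therefore among the most abundant transcripts of these cells: Fos was above 97.7% and Egr1 above 98.5% of the tested genes per kb. In Pkd2-/- cells the order became Junb (9781 ± 1351), Fos (8826 ± 3359) and Egr1 (8666 ± 2425), whose libraries overlapped, ahead of Jund (5421 ± 333) and Myc (4256 ± 794).

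**Figure D1:**
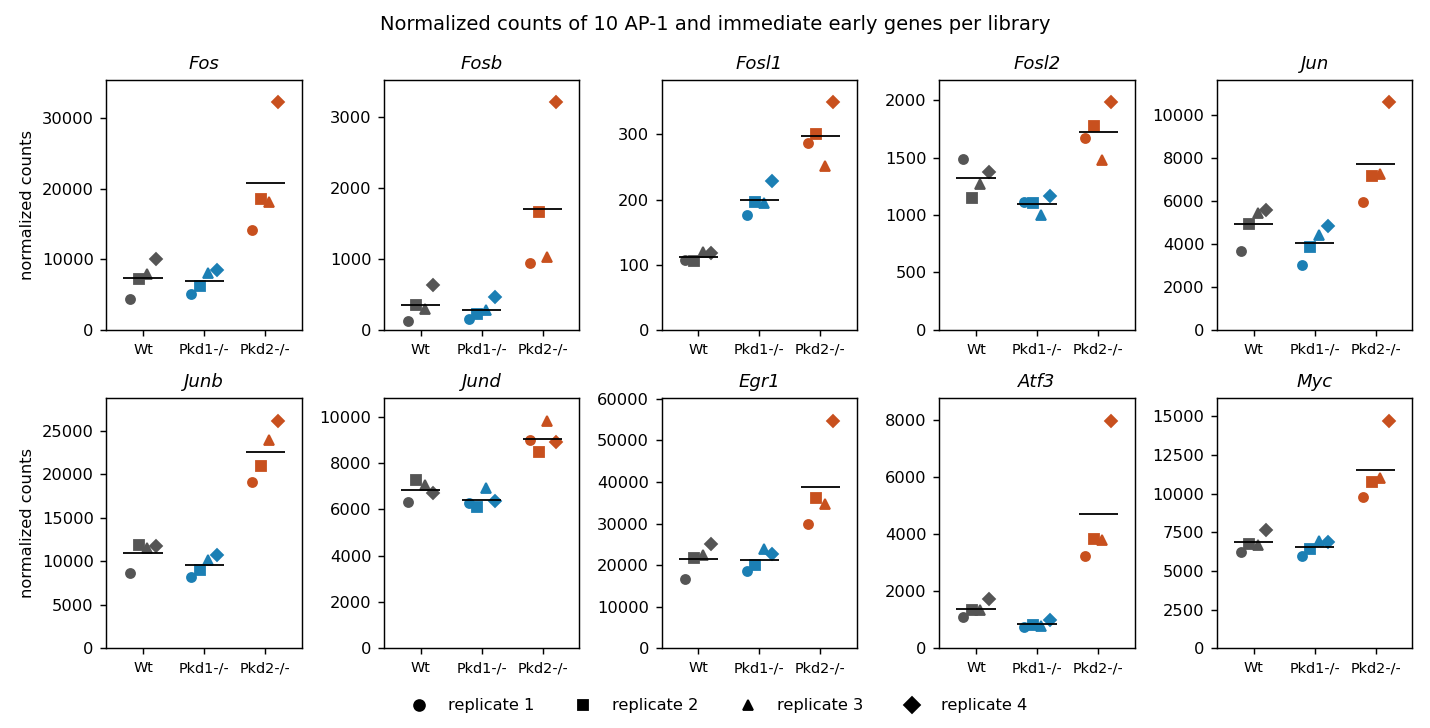
Normalized counts of the 10 genes in each library (vertical axes, linear from 0, scaled per gene) by genotype, with 1 symbol per replicate number and a black line at the mean of 4. For 9 of the 10 genes all Pkd2-/- libraries lie above all Wt libraries, and the diamond of Pkd2-/- replicate 4 is the highest point for 9 genes.

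The comparison of Pkd2-/- with Wt cells asked how transcription differed in collecting duct cells lacking polycystin-2, the calcium-permeable channel encoded by Pkd2. All 10 members were higher in Pkd2-/- cells at an adjusted p under 0.05, where 20.0% of all tested genes were called higher, and none was lower. In bulk RNA a higher level per cell and a larger share of cells with the transcript cannot be told apart. The median log2 fold change of the members was 0.94 against -0.01 for all tested genes. Among them Fosb, Atf3, Fos, Fosl1 and Junb also had a log2 fold change of at least 1, a rule that called 3.24% of the tested genes higher. Junb no longer met this fold rule without Wt replicate 1 (0.93) or without Pkd2-/- replicate 4 (0.96). For 9 members every Pkd2-/- library lay above every Wt library, which held for 17.4% of the tested genes.

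Of the Fos family, Fos itself, on chromosome 12 (85473890 to 85477273), had 4362, 7146, 7978 and 9992 normalized counts in Wt replicates 1 to 4, 5078, 6268, 8069 and 8426 in Pkd1-/-, and 14151, 18581, 18074 and 32232 in Pkd2-/-. The Pkd2-/- libraries were all higher than the rest, while Wt and Pkd1-/- overlapped almost entirely. The log2 fold change on the log2(normalized count + 1) scale was 1.49 ± 0.23 (SE, limma adjusted p = 3.5e-05, 2.80-fold) in Pkd2-/- cells and -0.05 ± 0.23 (adjusted p = 0.91) in Pkd1-/- cells. Fosb, which encodes a Fos protein expressed at a low level here (chromosome 7, 19302696 to 19310051), had 128, 345, 293 and 631 in Wt, 158, 227, 286 and 458 in Pkd1-/-, and 940, 1656, 1019 and 3198 in Pkd2-/-. Its change in Pkd2-/- cells was the largest of the 10 at 2.32 ± 0.41 (adjusted p = 0.00014, 4.98-fold), with the widest spread: Wt libraries alone differed 4.93-fold. In Pkd1-/- cells its difference from Wt was -0.20 ± 0.41 (adjusted p = 0.78).

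Fosl1, encoding Fra-1, differed from the other members in that it also rose in Pkd1-/- cells. It had 108, 105, 119 and 118 normalized counts in Wt, 176, 196, 195 and 228 in Pkd1-/- and 287, 301, 252 and 349 in Pkd2-/- libraries, so that the 3 genotypes formed separate ranges. The change was 0.81 ± 0.11 (adjusted p = 1.8e-05) in Pkd1-/- and 1.39 ± 0.11 (adjusted p = 8.4e-09) in Pkd2-/- cells, with 0.57 ± 0.11 between the knockouts (adjusted p = 0.0003). Exons of Fosl1 share up to 1055 bases with Ccdc85b on the opposite strand, and how strand was treated in counting is not given in the sources used here, so part of its count is uncertain. Fosl2, encoding Fra-2, had 1486, 1146, 1271 and 1371 in Wt, 1110, 1102, 997 and 1162 in Pkd1-/- and 1667, 1776, 1475 and 1980 in Pkd2-/-. Its differences were small, 0.39 ± 0.09 in Pkd2-/- (adjusted p = 0.0012) and -0.27 ± 0.09 in Pkd1-/- cells (adjusted p = 0.026), and in both cases libraries overlapped with Wt. The Pkd1-/- call was lost, with an adjusted p of up to 0.10, when any one of Wt replicates 1 and 4 or Pkd1-/- replicates 2 and 3 was left out.

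Of the Jun family, Junb, a Jun protein often rising with Fos, had 8652, 11909, 11531 and 11796 in Wt, 8174, 9028, 10187 and 10720 in Pkd1-/- and 19087, 20944, 23885 and 26105 in Pkd2-/-. Pkd2-/- libraries were clear of the others, and the change was 1.04 ± 0.11 (adjusted p = 2.2e-07, 2.05-fold). In Pkd1-/- cells Junb was -0.20 ± 0.11 from Wt (adjusted p = 0.19), or -0.31 without the low Wt replicate 1 (adjusted p = 0.024). Jun, the partner in the classical Fos-Jun dimer, had 3666, 4939, 5445 and 5575 in Wt, 3040, 3846, 4412 and 4841 in Pkd1-/- and 5938, 7139, 7258 and 10571 in Pkd2-/-, with changes of 0.64 ± 0.16 (adjusted p = 0.0028) and, in Pkd1-/- cells, -0.28 ± 0.16 (adjusted p = 0.21). Jund, the constant member, had 6299, 7275, 7063 and 6696 in Wt, 6255, 6118, 6897 and 6370 in Pkd1-/- and 8977, 8477, 9807 and 8906 in Pkd2-/-, and changed by 0.40 ± 0.06 (adjusted p = 8.5e-06) in Pkd2-/- and -0.09 ± 0.06 (adjusted p = 0.26) in Pkd1-/- cells. In Pkd2-/- cells it moved little but tightly, and the ranges of Wt and Pkd2-/- were far apart relative to the spread. Junb, Jun and Jund share 173, 232 and 543 exon bases with Prdx2, Junos and Gm11175 on the opposite strand.

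Egr1, the zinc finger factor, was among the most abundant members with 16584, 21852, 22357 and 25004 in Wt, 18494, 20024, 23919 and 22711 in Pkd1-/- and 29888, 36059, 34819 and 54669 in Pkd2-/-. The change in Pkd2-/- cells was 0.83 ± 0.14 (adjusted p = 0.00011, 1.78-fold), and that in Pkd1-/- cells -0.0025 ± 0.14 (adjusted p = 0.997). Myc had 6257, 6776, 6705 and 7681 in Wt, 5961, 6447, 6922 and 6876 in Pkd1-/- and 9806, 10744, 11000 and 14706 in Pkd2-/-, and changed by 0.74 ± 0.09 (adjusted p = 3.1e-06, 1.67-fold) against -0.06 ± 0.09 (adjusted p = 0.68) in Pkd1-/- cells.

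Atf3, the stress-induced ATF/CREB member, moved in opposite directions in the knockouts. It had 1104, 1335, 1356 and 1738 normalized counts in Wt, 738, 835, 792 and 988 in Pkd1-/- and 3229, 3829, 3796 and 7950 in Pkd2-/- libraries. The 3 ranges did not overlap, with Pkd2-/- replicate 4 far above its fellows. The change was 1.69 ± 0.20 in Pkd2-/- (adjusted p = 1.1e-06, 3.22-fold) and -0.71 ± 0.20 in Pkd1-/- cells (adjusted p = 0.011), and the Pkd1-/- call was lost with robust variance moderation (adjusted p = 0.081). The exact permutation test of 4 libraries against 4 gave its smallest two-sided p, 0.0286, for the 9 members that did not overlap in Pkd2-/- against Wt, for Fosl1 and Atf3 in Pkd1-/- against Wt, and p = 0.057 for Fosl2 in both. Libraries that do not overlap always give 0.0286 in this test, so it repeats the absence of overlap. Its p-values were not adjusted for the number of tests.

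Pkd1-/- cells against Wt cells, the same 4 Wt libraries serving as the control, showed 1 member higher (Fosl1) and 2 lower (Fosl2 and Atf3), 3 of 10 called where 27.1% of all tested genes were called in either direction (13.6% higher and 13.5% lower), and none with a log2 fold change of at least 1 (6.24% of the tested genes). In this model, which had no replicate term, the members' share was close to the background, with a median of -0.15 against 0.01 for all genes. With the replicate number as a block in limma, 5 of 10 were called, Jun and Junb being lower as well. The block called 5322 of the 18552 tested genes. For Fos, Fosb and Egr1 the direction in Pkd1-/- cells changed when single libraries were left out, and for Egr1 also when libraries were scaled to the same upper quartile.

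Set directly against Pkd1-/- cells, Pkd2-/- cells had higher levels of all 10 members, where 21.9% of tested genes were called higher. The libraries did not overlap for any of the 10, against 19.8% of the tested genes. The log2 fold changes ran from 0.50 for Jund to 2.51 ± 0.41 for Fosb (adjusted p = 4.7e-05), and Fosb, Atf3 (2.40 ± 0.20, adjusted p = 8.0e-09), Fos (1.54 ± 0.23, adjusted p = 1.9e-05) and Junb (1.24 ± 0.11, adjusted p = 1.5e-08) were past a log2 fold change of 1, compared with 4.53% of tested genes. Jun also passed it without Pkd1-/- replicate 4 (1.02) or Pkd2-/- replicate 1 (1.04).

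**Figure D2:**
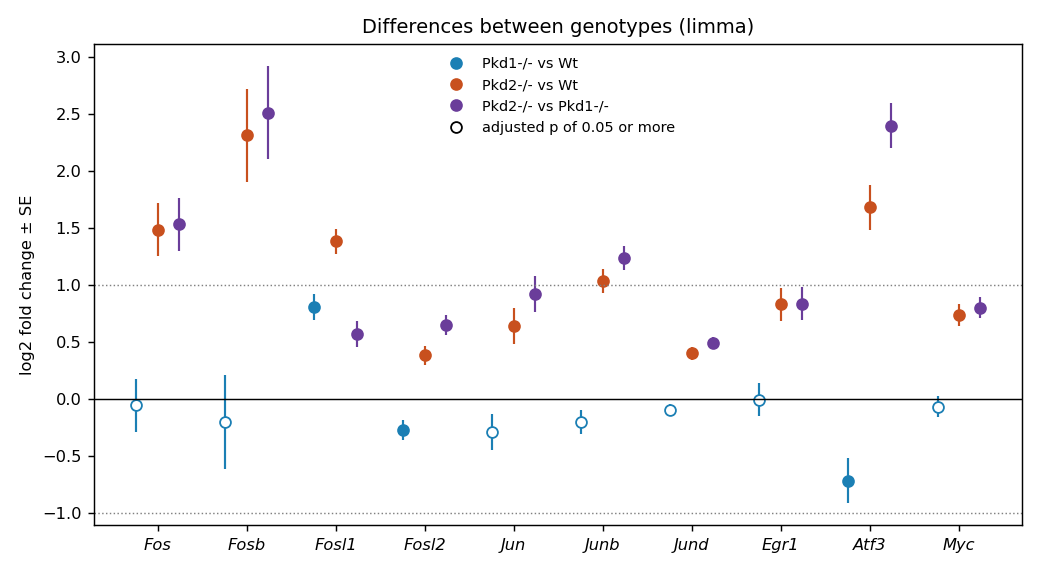
Log2 fold change ± SE (vertical axis, limma on log2(normalized count + 1), n = 4 libraries per genotype) of the 10 members in the 3 comparisons, with open symbols for an adjusted p of 0.05 or more and dotted lines at 1 and -1. All orange points (Pkd2-/- against Wt) lie above 0, between 0.39 and 2.32, while the blue points (Pkd1-/- against Wt) lie between -0.71 and 0.81.

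The make-up of each family was also compared per kb. Fos made up 92.3 ± 2.1% of the Fos family in Wt, 91.9 ± 1.2% in Pkd1-/- and 93.6 ± 0.8% in Pkd2-/- libraries (SD, n = 4), with overlapping ranges. Fosl1 took 1.76 ± 0.55% in Wt and 3.11 ± 0.45% in Pkd1-/- cells, without overlap of the libraries. Fosb took 1.55 ± 0.53% in Wt and 2.74 ± 0.69% in Pkd2-/- cells, with overlapping ranges. Fosl2 went from 4.43 ± 1.98% in Wt to 2.02 ± 0.53% in Pkd2-/- cells, without overlap of the libraries. In the Jun family Junb went from 45.7 ± 1.7% in Wt to 55.4 ± 1.4% in Pkd2-/- cells and Jund from 39.6 ± 2.8% to 31.0 ± 3.3%, both without overlap of the libraries, while Jun stayed between 13.6 and 14.7% in mean. Junb and Jund in Pkd1-/- cells were at 44.7 ± 1.5% and 41.7 ± 2.9%. Summed per kb, the Fos family was at 3381 ± 1021 in Wt and 9424 ± 3556 in Pkd2-/- cells, and the Jun family at 10404 ± 1148 and 17624 ± 2022.

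The spread between libraries of 1 genotype was larger for most members than for the typical gene. The SD was above the median of genes averaging 10 or more (7.45% of the mean in Wt, 6.61% in Pkd1-/- and 7.82% in Pkd2-/-) for 8, 8 and 9 of the 10 members. Fosb varied most, with an SD of 60.0, 45.5 and 61.5% of its mean, and Fos had 31.7, 22.6 and 38.1%, in the order Wt, Pkd1-/- and Pkd2-/-. In Pkd2-/- cells Atf3 lay between them at 46.4%. Jund was the steadiest in Pkd1-/- and Pkd2-/- cells, at 5.31 and 6.15%.

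The deviations also ran together across the members. Replicate 1 was the lowest library in all 3 genotypes for 7 of the 10 members (Fos, Fosb, Jun, Junb, Egr1, Atf3 and Myc), which held for 1.90% of all genes, and replicate 4 was the highest in all 3 for Fos, Fosb, Jun and Atf3, 4 of 10 against 7.82% of genes. The mean deviation of the members from their genotype mean was -0.34 on the log2 scale in Wt replicate 1, -0.24 in Pkd1-/- replicate 1 and -0.28 in Pkd2-/- replicate 1, and 0.27, 0.23 and 0.47 in the replicates numbered 4, while that of all genes stayed within -0.0097 and 0.0136. A further 27 immediate early genes deviated alike, by -0.27 in Wt replicate 1 and 0.46 in Pkd2-/- replicate 4. What the replicate numbers stand for is not given in the labels, and the part of harvest or handling was not tested. Without the 3 libraries numbered 4, a choice made after the data were seen, all 10 members were still higher in Pkd2-/- than in Wt cells, among them Fos by 1.42 ± 0.17, Fosb by 2.31 ± 0.28 and Atf3 by 1.52 ± 0.08.

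**Figure D3:**
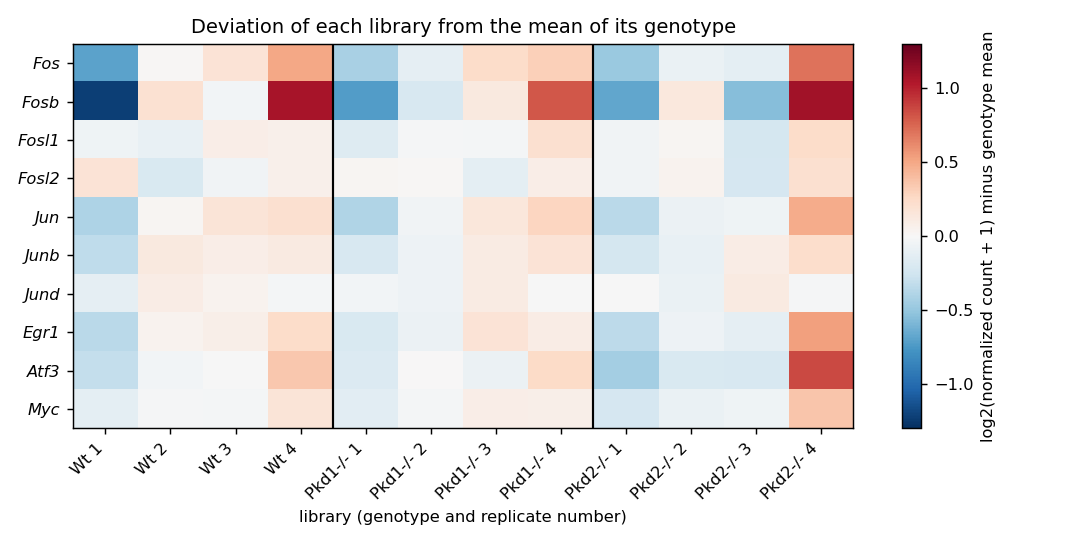
Deviation of each library (horizontal axis) from the mean of its genotype on the log2(normalized count + 1) scale (colour, blue lower and red higher) for the 10 members. The first column of each genotype is mostly blue and the fourth mostly red, with the deepest colours for Fosb, from -1.23 in Wt replicate 1 to 1.09 in Pkd2-/- replicate 4, and almost none for Jund.

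Genes of the same pathway were described in 8 lists, whose counts are read against the 27.1% of tested genes called in Pkd1-/- and the 42.3% called in Pkd2-/- cells against Wt, and whose medians stand beside 0.01 and -0.01 for all genes. With a minimum mean of 10, larger shares were called, 4854 and 7454 of 13703 genes. Genes named below to account for a small count, beyond those the naming rule gave, were chosen after their values were seen. Of 32 other immediate early genes 30 were tested, of which 18 were higher and 4 lower in Pkd2-/- cells (median 0.52) and 7 higher and 6 lower in Pkd1-/- cells (median 0.06). Egr2, a relative of Egr1, rose from a mean of 435.5 ± 143 to 1828 ± 1194 in Pkd2-/- cells (log2 fold change 1.94 ± 0.28), Csrnp1 by 1.39 ± 0.19 and the antiproliferative gene Btg2 by 1.38 ± 0.16. Against this run, Arc, a synaptic immediate early gene, fell from 2771 to 374 (-2.92 ± 0.22, adjusted p = 2.6e-09) in Pkd2-/- cells and rose to 5567 in Pkd1-/- cells (1.04 ± 0.22, adjusted p = 0.0012), while Klf4, Plk2 and Ier5 were the others that were lower in Pkd2-/- cells. Klf4 was at 0 in every Pkd2-/- library and at a mean of 4.5 in Wt, at least 1.5-fold lower against a floor of 3 counts per library. The orphan nuclear receptor gene Nr4a2 rose in both knockouts, by 1.77 ± 0.17 in Pkd1-/- and 1.13 ± 0.17 in Pkd2-/- cells, while Ier5 changed by 0.68 in Pkd1-/- and -0.38 in Pkd2-/- cells. Ccn2, encoding the matricellular protein CTGF, changed by -0.95 in Pkd1-/- and 0.70 in Pkd2-/- cells. Npas4 was at 0 in all libraries.

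For the kinases and factors upstream of these genes the share called in Pkd2-/- cells was near that of all tested genes. It was below that of genes averaging 10 or more (7454 of 13703). Of 22 tested, 3 were higher (Rps6ka3, Mrtfb, Mapk14) and 6 lower in Pkd2-/- cells, with a median of 0.01, and 2 higher (Map2k1, Elk3) and 1 lower (Mapk7) in Pkd1-/- cells. These counts rested on single libraries. Without Wt replicate 2 or without Pkd2-/- replicate 4 only 1 gene, Rps6ka3, was higher in Pkd2-/- cells. Only 1 was higher in Pkd1-/- cells, Map2k1, without any one of Wt replicates 2 and 3, Pkd1-/- replicates 2, 3 and 4 or Pkd2-/- replicate 1, and 0 were lower without Wt replicate 2 or Pkd1-/- replicate 4. Elk3, a ternary complex factor, and Mapk3, encoding ERK1, were lower in Pkd2-/- cells by -0.87 ± 0.06 and -0.60 ± 0.05. Most feedback inhibitors rose in Pkd2-/- cells. There 14 of 17 were higher and 1, Nab2, lower (median 0.61), led by the MAP kinase phosphatase genes Dusp5 (2.33 ± 0.33), Dusp2 (1.70 ± 0.14), Dusp10 (1.59 ± 0.12) and Dusp6 (1.02 ± 0.17). In Pkd1-/- cells 5 were higher (Spry4, Spred2, Nab2, Spred1 and Dusp10) and 1, Dusp1, lower (median 0.03), while 8 were higher without the libraries numbered 4. The call of Dusp10 in Pkd1-/- cells was lost, with an adjusted p of up to 0.071, without any one of Wt replicates 3 and 4 and Pkd1-/- replicates 1 and 2. That of Dusp1 was lost with robust variance moderation in limma (adjusted p = 0.080). Its Pkd1-/- libraries (1550 to 2438) overlapped with those of Wt (2245 to 5145).

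The stress arm that links ATF4 to ATF3 was the only one of the 8 lists with every gene called in Pkd2-/- cells. All 8 genes (Atf4, Ddit3, Trib3, Asns, Chac1, Sesn2, Ppp1r15a and Gadd45a) were higher in Pkd2-/- cells, with a median of 1.27, and all 8 were also higher than in Pkd1-/- cells (median 1.40). Trib3, a pseudokinase gene, rose from 375.8 to 2119 (2.49 ± 0.09), Chac1, for glutathione breakdown, from 280.5 to 1316 (2.23 ± 0.13), Ddit3, encoding CHOP, from 992.5 to 2960 (1.58 ± 0.07), and Asns, asparagine synthetase, from 2261 to 6089 (1.43 ± 0.07). In Pkd1-/- cells Atf4 was higher by 0.18, while Sesn2 (-0.997 ± 0.06) and Gadd45a (-0.51 ± 0.07) were lower, and a further gene was higher, 2 in all, without Pkd1-/- replicate 4.

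Among other AP-1 dimer partners, 9 of 12 were tested, and 5 were higher in Pkd2-/- cells, the small Maf genes Mafg (0.65 ± 0.06), Maff (0.56 ± 0.08) and Mafk (0.51 ± 0.05) with Jdp2 (0.39 ± 0.05) and Atf2 (0.27 ± 0.08), and 1, Creb5, lower (median 0.27). In Pkd1-/- cells Mafk was higher by 0.67 ± 0.05, and Maff (-0.45 ± 0.08) and Atf7 were lower. The Creb5 call was lost without Wt replicate 4 (adjusted p = 0.058), and that of Atf7 without any one of Wt replicates 1 and 4 and Pkd1-/- replicates 1 and 2 (adjusted p up to 0.11). Without any one of Wt replicate 4, Pkd1-/- replicates 1 and 4 and Pkd2-/- replicate 4, 2 partners rather than 1 were higher in Pkd1-/- cells. Known AP-1 target genes split in both directions. Of 15 tested, 6 were higher and 4 lower (Itga5, Cd44, Hmox1, Timp1) in Pkd2-/- cells. The median there was 0.16, or 0.11 without Mmp9, which held at most 3 counts in every Wt and Pkd2-/- library. In Pkd1-/- cells 3 were higher (Cd44, Timp1, Vegfa) and 3 lower, Plau and Hmox1 among them (median 0.16, or 0.06 with Mmp9 set at its bound). Vegfa lost its call without any one of Wt replicates 1 and 3 and Pkd1-/- replicate 3 (adjusted p up to 0.079). Plaur, the urokinase receptor gene, and Hbegf, an EGF receptor ligand gene, rose by 1.30 ± 0.10 and 0.92 ± 0.11 in Pkd2-/- cells. Itga5, the fibronectin receptor subunit gene, fell there by 1.91 on the log2 scale, and the hyaluronan receptor gene Cd44 changed by 1.25 ± 0.10 in Pkd1-/- and -1.16 ± 0.10 in Pkd2-/- cells.

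Genes around MYC moved in part. Of 11 partners, 4 were higher (Mga, Mnt, Mxi1, Max) and 3 lower (Mycn, Mycl, Mxd3) in Pkd2-/- cells, and 1 was higher (Mxi1) and 2 lower (Mycl, Mxd4) in Pkd1-/- cells, with medians of 0.02 and 0.10. Without Pkd2-/- replicate 4, 2 partners rather than 1 were higher in Pkd1-/- cells. The paralogue Mycl fell from 89.0 in Wt to 40.3 in Pkd1-/- and 12.5 in Pkd2-/- cells. Mycn, at a mean of 19.8 in Wt, held at most 3 counts in every Pkd2-/- library, at least 6.58-fold lower. Of 15 MYC target genes 8 were higher and 3 lower (Ccnd2, Ldha, Tfrc) in Pkd2-/- cells (median 0.24), and 6 higher and 2 lower (Cad, Nop16) in Pkd1-/- cells (median 0.08). The 2 lower calls became 0 without Wt replicate 3 and 1 without any one of Wt replicate 4, Pkd1-/- replicates 1 and 3 or all libraries numbered 4, the Cad call being lost each time. The ribosome production genes Nop56 and Polr1b rose by 0.89 ± 0.05 and 0.76 ± 0.06 in Pkd2-/- cells. The lactate dehydrogenase gene Ldha changed by 0.51 ± 0.06 in Pkd1-/- and -0.66 ± 0.06 in Pkd2-/- cells. Ccnd2, encoding cyclin D2, was at a mean of 12.8 in Wt and 56.8 in Pkd1-/- and at most 3 in every Pkd2-/- library, at least 4.25-fold lower than in Wt.

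**Figure D4:**
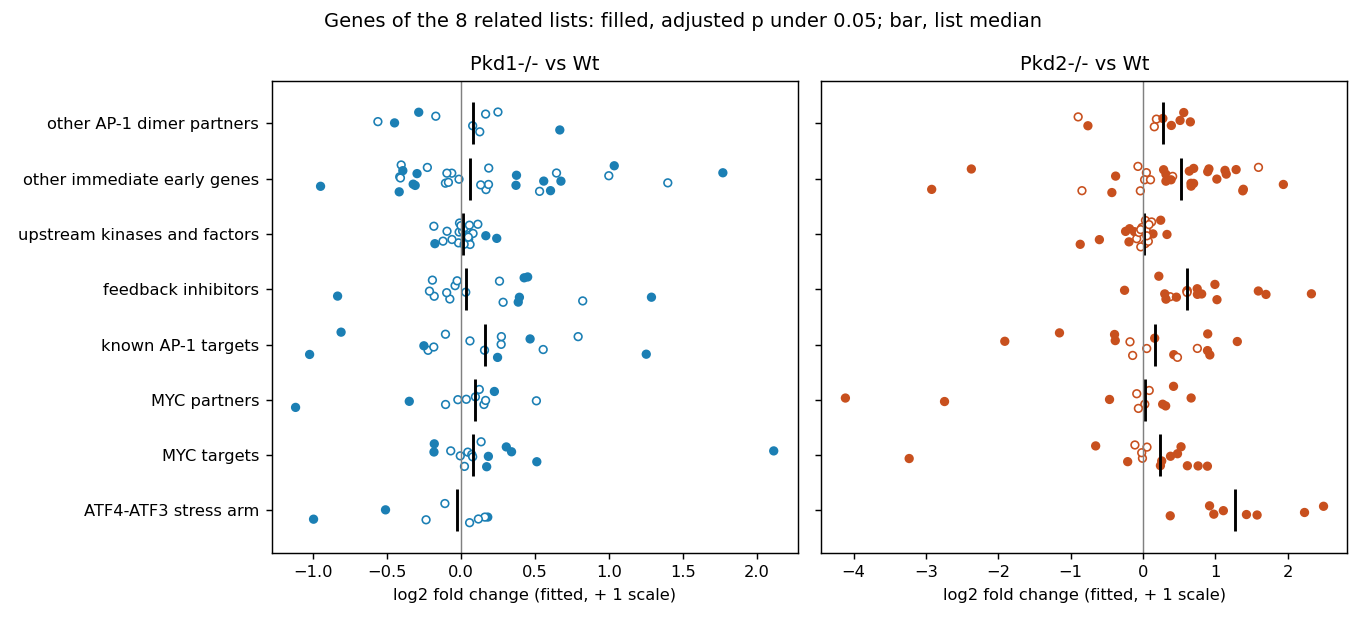
Log2 fold change (horizontal axis, fitted on the log2(normalized count + 1) scale) of every tested gene of the 8 lists in Pkd1-/- (left) and Pkd2-/- cells (right) against Wt, filled where the adjusted p was under 0.05, with a black bar at the list median; points far below 0 for Mycn, Ccnd2 and Klf4 depend on the added count. The bars of Pkd2-/- cells stand at 1.27 for the ATF4-ATF3 stress arm, 0.61 for the feedback inhibitors and 0.52 for the other immediate early genes, and at 0.01 for the upstream kinases and factors.

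For the 5 members past a log2 fold change of 1 against Wt, the genes with the most alike profile were found by the smallest root mean square difference of gene-centred log2 values over the 12 libraries, among 13702 genes. Fos was most like Btg2 (0.22), Csrnp1 (0.22) and Ier3 (0.25), and Fosb, whose fit was looser, most like Egr2 (0.46), Atf3 (0.53) and Fos (0.55). Junb had the closest companions, Ppp1r15a (0.08), Hbegf (0.10) and Ier2 (0.12). Atf3 was most like the protease gene Adamts1 (0.22), Itpr2 (0.24) and Rasd1 (0.27). Fosl1 stood apart with Myof (0.13), Spata13 (0.15) and Osgin1 (0.17). These were higher in both knockouts, Myof by 0.85 and 1.17 in Pkd1-/- and Pkd2-/- cells, as their choice for a profile like that of Fosl1 implies.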

How the data were processed

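RNA-seq was made from 12 mIMCD3 libraries, 4 per genotype, grouped by the labels. Per the labels and the study's methods, the authors trimmed reads with Trim Galore, checked them with FastQC, aligned them with HISAT2 to the mouse genome (GRCm38), counted genes with htseq-count and divided counts by DESeq2 size factors. The deposited values are such normalized counts rounded to whole numbers and were treated as a score, not as read counts, so no count model was run. Rounding and a shared scale hide the true read totals, which were estimated from skipped and doubled low values.

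Of 47642 listed genes 25060 had a count, and 47223 identifiers were paired with a symbol. All 12 libraries entered 1 linear model (limma 3.58.1 in R 4.3.3, trended moderation, genotype only) on log2(normalized count + 1) for 18552 genes with a mean of at least 1, with Benjamini-Hochberg adjustment over these in each of 3 comparisons. Calls needed an adjusted p under 0.05, and as a second rule a log2 fold change of at least 1. The model was tested on simulated data that had the same dispersion in every gene and no replicate effect. That test does not speak for genes as variable as Fosb. Exact two-sided permutation tests compared 4 libraries with 4. Exon lengths and positions came from GENCODE M21. The members and lists were chosen with earlier results of these data known. Named were all members and, per list and comparison with Wt, up to 4 called genes with the largest change, a mean of at least 10 and no overlap, and for members past a log2 fold change of 1 the 3 most alike genes. A gene of the AP-1 target list is not reported here. Alternatives were other added counts, filters, scaling, moderation, sample sets, a replicate term and leaving out libraries. Figures were drawn with matplotlib 3.10.9.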

Additional observations from a re-analysis of the deposited data

Results flagged for a closer look

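In groups of 4 libraries, a single library stood apart when its gap to the nearest other, divided by the range of the group, passed Dixon's 95% limit. This held for 13 of 261 groups over 90 genes, and chance alone gives about 1 in 20 groups. Of the members, Junb had a gap of 0.884 in Wt, where replicate 1 was low (8652 against 11531 to 11909), and Atf3 a gap of 0.873 in Pkd2-/- cells, where replicate 4 was high (7950 against 3229 to 3829). Pkd2-/- replicate 4 was also high for Arc (0.93), Csrnp1 (0.903), Dusp6 (0.901), Egr2 (0.884), Nr4a2 (0.879), Dusp5 (0.873) and Mafk (0.872). Wt replicate 1 was low for Btg2 (0.851), Wt replicate 3 for Elk3 (0.84) and Pkd1-/- replicate 4 for Jdp2 (0.976, 1329 against 1410 to 1412), and Pkd1-/- replicate 2 was high for Mapk14 (0.97, 4561 against 4364 to 4370).

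Among the members, the tested genes of the 8 lists and the genes named for a like profile, some were called in opposite directions in the knockouts, with a called difference between the knockouts themselves (limma, log2 fold change of Pkd2-/- over Pkd1-/- cells). Higher in Pkd2-/- and lower in Pkd1-/- cells than in Wt were the members Atf3 (2.40) and Fosl2 (0.65), and the list genes Ccn2 (1.65), Gadd45a (1.43), Sesn2 (1.37), Klf2 (1.22), Maff (1.01), Klf10 (0.73) and Trib1 (0.71). So were Itpr2 (2.28), Adamts1 (2.17) and Rasd1 (1.98), but they were named for a profile like that of Atf3, and their directions follow from that choice. Lower in Pkd2-/- and higher in Pkd1-/- cells than in Wt were Ccnd2 (-5.35), Arc (-3.96), Cd44 (-2.41), Ldha (-1.17), Ier5 (-1.06), Elk3 (-1.04), Timp1 (-0.85), Nab2 (-0.68), Tfrc (-0.39) and Map2k1 (-0.36). A call against Wt rested on single libraries for Fosl2 in Pkd1-/- cells, given above, for Elk3 in Pkd1-/- cells (adjusted p up to 0.17 without any one of Wt replicates 2 and 3, Pkd1-/- replicates 2, 3 and 4 and Pkd2-/- replicate 1), for Map2k1 in Pkd2-/- cells (up to 0.075 without any one of Wt replicate 3 and Pkd2-/- replicates 1, 2 and 4), for Trib1 in Pkd1-/- cells (up to 0.093 without any one of Wt replicate 4 and Pkd1-/- replicates 1 and 2) and for Trib1 in Pkd2-/- cells (up to 0.19 without any one of Wt replicates 1, 2 and 3, Pkd1-/- replicates 2, 3 and 4 and Pkd2-/- replicates 2 and 4). The value of Ccnd2 depends on the added count, since it held at most 3 counts in every Pkd2-/- library.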

How the results depend on the processing

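The 10 members called higher in Pkd2-/- cells, against Wt and against Pkd1-/-, kept their call under every alternative run, including each left-out library. In Pkd1-/- against Wt, 3 members were called, but 5 with the replicate number as a block (Jun and Junb added). Same-numbered libraries deviated together only weakly, with correlations of -0.0726 to 0.1997 over 13703 genes, and not every library was closest to its own number, so the numbers were not taken as pairs. The highest correlations were between libraries numbered 4, of Wt and Pkd2-/- (0.1997) and of Pkd1-/- and Pkd2-/- (0.1672). Libraries of different number ranged from -0.1994 to 0.114. Under the block the all-gene calls were 5322, 8048 and 8782 against 5020, 7852 and 8588 in the order Pkd1-/- and Pkd2-/- against Wt and Pkd2-/- against Pkd1-/-. With a minimum mean of 10, fewer genes were tested, and 739 rather than 1158 passed the fold rule in Pkd1-/- against Wt. In Pkd1-/- cells the block also gave 11 higher and 10 lower rather than 7 and 6 of the other immediate early genes, 8 rather than 5 feedback inhibitors higher, and 2 rather than 1 higher both in the stress arm and among the dimer partners.

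Over the 90 genes named and the alternatives run, the differences that changed direction were all uncalled. With libraries scaled to the same upper quartile, Egr1 (0.0097), Mapk3 (0.0023) and Mrtfb (0.012) in Pkd1-/- and Mxd4 (-0.0073) and Pkd2 (-0.019) in Pkd2-/- against Wt, and Mapk14 (-0.020) between the knockouts, changed sign. Without the libraries numbered 4, Fos (0.015), Egr1 (0.043) and Mrtfb (0.0088) in Pkd1-/-, Mxd4 (-0.0078) in Pkd2-/- and Mapk14 (-0.021) between the knockouts did. Leaving out 1 library gave ranges across 0 in Pkd1-/- against Wt for Fos (-0.28 to 0.12), Fosb (-0.61 to 0.16), Egr1 (-0.12 to 0.076), Chac1 (-0.031 to 0.22), Ddit3 (-0.025 to 0.12), Mapk3 (-0.037 to 0.024), Mga (-0.052 to 0.12), Ier2 (-0.13 to 0.070), Mnt (-0.055 to 0.019), Mrtfb (-0.059 to 0.053) and Rps6ka3 (-0.011 to 0.082), in Pkd2-/- against Wt for Mxd4 (-0.0074 to 0.045), Cad (-0.045 to 0.037), Nop16 (-0.043 to 0.0051) and Pkd2 (-0.055 to 0.071), and between the knockouts for Mapk7 (-0.038 to 0.028), Mapk14 (-0.015 to 0.057) and Mmp9 (-0.39 to 0.29). The cause was not tested. True read depth is unknown apart from the estimate, and with 1 clone per knockout no value separates clone from genotype.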
